A study of Mus musculus with 6 samples.

Results

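The opioid peptide precursors and the opioid receptors were followed as a group of 7 genes: Penk, Pdyn and Pnoc, which encode precursors, and Oprm1, Oprd1, Oprk1 and Oprl1, which encode receptors. Members were picked by gene name, with earlier results of these data known, and all 7 were found among the 26554 features of the data. All 7 also passed the filter on low counts and so belong to the 17240 features that were tested. The RNA came from VPL/VPM tissue of WT C57 mice, that is, from the ventral posterior nuclei of the thalamus, lateral and medial, which relay touch, temperature and pain signals to the cortex. For 3 libraries the right VPL/VPM had been injected with collagenase IV, 0.01 U in 10 nL, which breaks down the wall of small vessels and causes bleeding. For the other 3 the injection was 10 nL of saline. All 6 were taken on day 14. Whether a library is 1 animal or a pool is not said in the labels, so every p-value below measures the spread between these samples, and no uninjected tissue was analysed here.

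Opioid peptides are cut from larger precursor proteins by proteases in secretory vesicles. Proenkephalin (Penk) yields the enkephalins, prodynorphin (Pdyn) yields the dynorphins, and prepronociceptin (Pnoc) yields nociceptin. The mu receptor (Oprm1) and the delta receptor (Oprd1) bind enkephalins, the kappa receptor (Oprk1) binds dynorphins, and the nociceptin receptor (Oprl1) binds nociceptin. All of these receptors couple to inhibitory G proteins, which lower adenylyl cyclase activity, open potassium channels and close calcium channels. In the brain, enkephalin and dynorphin precursors are known as abundant products of striatal projection neurons, and the mu receptor as a strong marker of the medial habenula and of some thalamic nuclei.

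Pnoc differs from Penk and Pdyn in a short motif at the start of the opioid peptides. The first copy in Penk and the copy in Pnoc are shown here because they tell the enkephalin and nociceptin families apart. The stretches are bases 280 to 327 of the Penk coding sequence and 403 to 450 of Pnoc. Capitals mark the match, and lower case letters are the flanking bases, read 5′ to 3′ from the longest coding transcript in GENCODE M21.

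Penk: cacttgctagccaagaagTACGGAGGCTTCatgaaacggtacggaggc

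Pnoc: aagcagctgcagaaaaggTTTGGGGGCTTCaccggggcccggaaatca

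In Penk the match is to the codons TAN, GGN, GGN and TTN in a row (N is any base), which cover those for tyrosine, glycine, glycine and phenylalanine that open every enkephalin and dynorphin. It was searched on the coding strand and in frame only. The 804 coding bases of Penk held it 7 times, followed by the methionine codon ATG in 6 copies and by the leucine codon CTG in 1, which is the difference between Met-enkephalin and Leu-enkephalin. The 744 coding bases of Pdyn held it 3 times, always before a leucine codon (CTG in 2 copies, TTG in 1). The 636 coding bases of Pnoc held it 0 times and instead held once the pattern in which TTN, the frame of a phenylalanine codon, stands in the first place. Of 22075 coding sequences, 90 (0.408%) held the first pattern at least once and 184 (0.834%) held the second. Only Penk, Pdyn and the keratin-associated genes Krtap19-2 and Krtap19-4 held the first pattern 3 or more times.

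Total counts ran from 33603076 to 44815451 per library. All 15 relay neuron markers were tested and detected, led by Prkcd, Adarb1 and Rora, and their summed level was between 4116.3 and 5996 CPM (the count scaled to sequencing depth, with TMM factors for library composition). Libraries nevertheless differed in markers of neighbouring regions, and saline replicate 3 stood apart. Summed markers of striatal neurons were 590.3, 486.6 and 1579.7 CPM in saline replicates 1, 2 and 3, against 716.7, 537.6 and 484.9 CPM in collagenase replicates 1, 2 and 3. Saline replicate 3 was the highest of the 6 libraries for 15 of 15 tested striatal markers, which held for 24.1% of all tested genes. Summed habenular markers were 249.8, 291.4 and 535.1 CPM after saline, against 477, 341.2 and 695.9 CPM after collagenase. Saline replicates 1 and 2 were the lowest pair for 10 of 14 habenular markers, and for 12.3% of all tested genes. The cause of these differences was not tested, and results that rest on saline replicate 3 or collagenase replicate 1 are given with and without them. In bulk tissue, fewer cells of a type and less RNA per cell cannot be told apart.

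No difference between collagenase and saline was called for any of the 7 genes in the 6 libraries. That does not show that the groups were alike, since several of the intervals given below are wide. With edgeR's quasi-likelihood test and Benjamini-Hochberg adjustment over all tested genes, 0 of 7 passed the threshold of 0.05, while 2.41% of all tested genes did. At an unadjusted edgeR p under 0.05 the count was again 0 of 7, against 12% of all tested genes. DESeq2 called 0 of the 6 members for which it gave an adjusted p, all but Penk, and 4% of the genes it tested. Limma on FPKM (the fragment count scaled by transcript length and sequencing depth) called 0 of 7, and 2.06% of the genes it tested. With log2(FPKM + 0.1) its log2 fold changes were 1.30 for Oprm1, 1.07 for Oprk1, 0.20 for Oprl1 and -0.34 for Oprd1. They were -0.83 for Penk, 0.00 for Pdyn and -0.10 for Pnoc. With edgeR the members' median log2 fold change, collagenase over saline, was -0.17, with 3 values above 0 and 4 below. The edgeR median of all tested genes was -0.02. Libraries of the 2 groups did not overlap for 1 member, Pnoc, and for 17.6% of all tested genes.

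**Figure D1:**
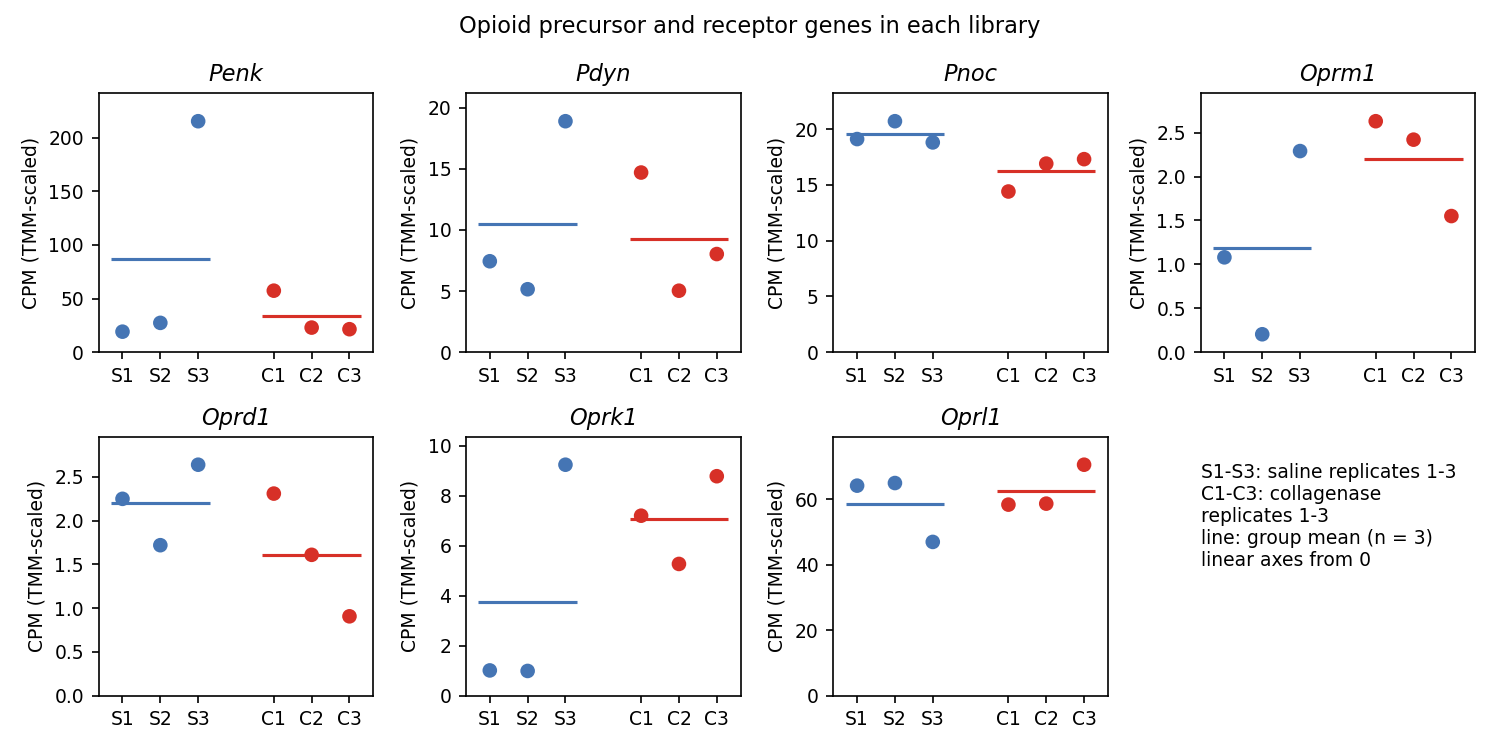
TMM-scaled CPM of each gene (y axis, linear from 0) in saline replicates 1 to 3 (S1 to S3, blue) and collagenase replicates 1 to 3 (C1 to C3, red), with a line at each group's mean of 3 libraries. Penk is carried by 1 saline library at 215 CPM, Oprk1 is near 1 CPM in 2 saline libraries, and Pnoc is the single gene whose groups do not overlap.

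Among the precursors, Penk (ENSMUSG00000045573, minus strand, chr4:4133531-4138819 in GRCm38, 2 annotated transcripts) varied most. Its level was 19.1, 27.3 and 215 CPM in saline replicates 1, 2 and 3, and 57.3, 22.9 and 21.4 CPM in collagenase replicates 1, 2 and 3. Saline replicate 3 was the highest and collagenase replicate 1 the next, while the other 4 libraries lay close together, so the groups overlapped. Means were 87.2 ± 111 CPM after saline and 33.9 ± 20.3 CPM after collagenase (SD, n = 3 each). The log2 fold change was -1.36 (SE 1.09, 95% interval -4.13 to 1.41), with an edgeR adjusted p of 0.732 and a two-sided exact permutation p of 0.7, where 0.1 is the smallest value that 3 against 3 can give. The sign rested on 1 library: it was 0.55 on the log2 scale without saline replicate 3 (edgeR adjusted p = 0.655) and -0.07 without both saline replicate 3 and collagenase replicate 1 (edgeR adjusted p = 0.864).

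The Penk pattern over libraries ran beside that of striatal markers. Ppp1r1b, which encodes a phosphoprotein of dopamine signalling in striatal projection neurons, was at 42.3, 56.6 and 262.7 CPM after saline and 96.8, 49 and 43.9 CPM after collagenase. Adora2a, the adenosine receptor of enkephalin-containing striatal neurons, was at 4.6, 4.57 and 50.1 CPM after saline and 16.1, 3.98 and 3.63 CPM after collagenase. Both showed the order seen for Penk, with saline replicate 3 first and collagenase replicate 1 next. This pair of libraries was on top for 10 of 15 striatal markers and for 5.12% of all tested genes. With edgeR 0 of 15 striatal markers passed, with 0 at an unadjusted p under 0.05 and 0 of the 12 to which DESeq2 gave an adjusted p. The part of striatal tissue in the Penk values was not tested.

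Pdyn (ENSMUSG00000027400, minus strand, chr2:129686565-129699844) was lower and less variable. It reached 7.44, 5.15 and 18.9 CPM after saline and 14.7, 5.03 and 8.03 CPM after collagenase. Saline replicate 3 and collagenase replicate 1 were again the highest libraries and the groups overlapped. Means were 10.5 ± 7.35 CPM and 9.27 ± 4.98 CPM (SD, n = 3 each), with a log2 fold change of -0.17 (SE 0.58, 95% interval -1.56 to 1.22; edgeR adjusted p = 0.952). The direction of this value depended on the libraries used, since it was 0.56 without saline replicate 3 and 0.12 without collagenase replicate 2.

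**Figure D2:**
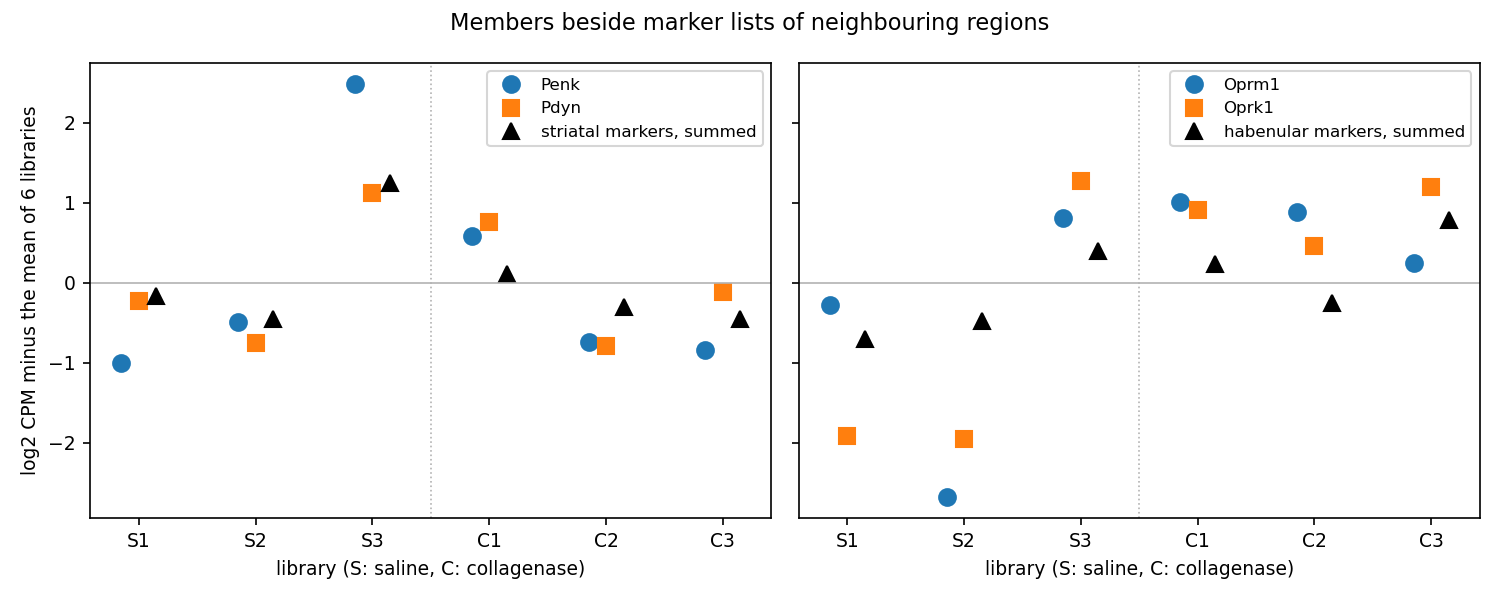
Log2 CPM minus the mean over 6 libraries (y axis) in each library (x axis), for Penk and Pdyn beside the summed striatal markers (left) and for Oprm1 and Oprk1 beside the summed habenular markers (right). On the left all 3 series are highest in saline replicate 3, and on the right the 3 series are lowest in saline replicates 1 and 2.

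Pnoc (ENSMUSG00000045731, minus strand, chr14:65400673-65425472) was the steadiest precursor. It measured 19.1, 20.7 and 18.8 CPM after saline and 14.4, 16.9 and 17.3 CPM after collagenase. Every collagenase library lay below every saline library, which happened for 7.5% of all tested genes. Means were 19.5 ± 1.04 CPM after saline and 16.2 ± 1.58 CPM after collagenase (SD, n = 3 each). The log2 fold change of -0.27 (SE 0.12, 95% interval -0.55 to 0.01) did not pass, with an edgeR p of 0.0569 before and 0.438 after adjustment. The exact permutation p was 0.1, the smallest this design allows. On the FPKM scale the groups overlapped, at 8.79, 9.86 and 7.86 after saline and 7.76, 8.58 and 8.29 after collagenase. Markers of GABAergic neurons, a class to which nociceptin neurons largely belong, summed to between 1389.8 and 1654.5 CPM after saline and between 1115.5 and 1293.6 CPM after collagenase. Of the 15 markers 1 (Dlx1) passed with edgeR, lower after collagenase, beside 0.29% of all tested genes in that direction. With no overlap, 5 were lower and 1 was higher, beside 17.6% of all tested genes in either direction. The part of GABAergic neurons in the Pnoc values was not tested.

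Among the receptors, the nociceptin receptor Oprl1 (ENSMUSG00000027584, plus strand, chr2:181715016-181720985) had the most counts, 1604 to 2850 per library. It was at 64.2, 65.0 and 47.0 CPM after saline and 58.4, 58.7 and 70.6 CPM after collagenase. Saline replicate 3 was lowest, collagenase replicate 3 highest, and the groups overlapped. Means were 58.7 ± 10.1 CPM and 62.6 ± 6.98 CPM (SD, n = 3 each), and the log2 fold change was 0.09 (SE 0.15; edgeR adjusted p = 0.885). Its 95% interval, -0.25 to 0.43, corresponds to a fold of 0.842 to 1.35. This was among the narrowest intervals of the 7 genes, beside that of Pnoc. The value was -0.05 without saline replicate 3.

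The kappa receptor Oprk1 (ENSMUSG00000025905, plus strand, chr1:5588466-5606131) was split within the saline group. It was at 1.01, 0.989 and 9.24 CPM after saline and 7.20, 5.27 and 8.78 CPM after collagenase. Saline replicates 1 and 2 were the lowest of the 6 libraries, and saline replicate 3 was the highest. Means were 3.75 ± 4.76 CPM and 7.09 ± 1.76 CPM (SD, n = 3 each), with a log2 fold change of 0.93 (SE 0.90, 95% interval -1.28 to 3.14; edgeR adjusted p = 0.78). The call rested on saline replicate 3. Without it, Oprk1 passed with a log2 fold change of 2.82 (SE 0.28, 95% interval 2.16 to 3.47; edgeR adjusted p = 0.00367), in a comparison of 2 saline with 3 collagenase libraries in which 1 of 7 members was called beside 5.21% of tested genes in either direction and 2.86% in the higher direction. Without saline replicate 3 and collagenase replicate 1 together it was 2.80 (edgeR adjusted p = 0.00248). That setting was chosen after the values were seen, and 977 of all tested genes passed in it. Without saline replicate 1 or saline replicate 2 the log2 fold change was lower, 0.47 and 0.48 (edgeR adjusted p = 0.993 and 0.907). Over all settings that kept the 6 libraries the adjusted p of Oprk1 was 0.42 or more.

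The low level of Oprk1 in saline replicates 1 and 2 was shared by many habenular markers, although saline replicate 3 was the highest library for 1 of the 14. Gpr151, an orphan receptor of the habenula, was at 2.19 and 0.64 CPM in saline replicates 1 and 2, at 21.6 CPM in saline replicate 3, and at 18.5, 8.63 and 33.6 CPM after collagenase. Chrnb4, a nicotinic receptor subunit of the medial habenula, was at 0.383, 0.96 and 15 CPM after saline and 10.3, 5.54 and 18.3 CPM after collagenase. For both markers saline replicates 1 and 2 were lowest, as for Oprk1. Of 14 habenular markers 1 (Vav2) passed with edgeR over 6 libraries, higher after collagenase, beside 2.12% of all tested genes in that direction. The list median log2 fold change was 0.85. Without saline replicate 3, the library where Oprk1 was highest, 3 of 14 passed and the list median was 2.00. All 3 were higher after collagenase, beside 2.86% of tested genes in that direction. The part of habenular tissue in the Oprk1 values was not tested.

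The mu receptor Oprm1 (ENSMUSG00000000766, plus strand, chr10:6758506-7038198, 31 annotated transcripts) had few counts. There were 48, 7 and 78 after saline and 125, 90 and 60 after collagenase. These were 1.08, 0.204 and 2.29 CPM after saline and 2.63, 2.42 and 1.55 CPM after collagenase. Saline replicate 2 was the lowest, saline replicate 3 fell within the collagenase range, and the groups overlapped. Means were 1.19 ± 1.05 CPM and 2.2 ± 0.568 CPM (SD, n = 3 each), with a log2 fold change of 0.89 (SE 0.66, 95% interval -0.64 to 2.41; edgeR adjusted p = 0.689). It ranged from 0.39 without saline replicate 2 to 1.73 without saline replicate 3, and the lowest adjusted p with 1 library left out was 0.15. As for Oprk1, saline replicates 1 and 2 were the lowest libraries, and the part of habenular tissue was not tested. Gm10945 and Ipcef1 overlap Oprm1 on the opposite strand, and A830012C17Rik overlaps Penk in the same way. No strand-marking step is named in the labels, so reads of overlapping genes may not be told apart.

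The delta receptor Oprd1 (ENSMUSG00000050511, minus strand, chr4:132110726-132144486, 1 annotated transcript) also had few counts, 35 to 110 per library. It was at 2.25, 1.72 and 2.64 CPM after saline and 2.31, 1.61 and 0.907 CPM after collagenase. Collagenase replicate 3 was the lowest library and the other 5 overlapped. Means were 2.2 ± 0.464 CPM and 1.61 ± 0.702 CPM (SD, n = 3 each), with a log2 fold change of -0.45 (SE 0.36, 95% interval -1.28 to 0.38; edgeR adjusted p = 0.721). The value stayed below 0 with each library left out, from -0.81 to -0.16.

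**Figure D3:**
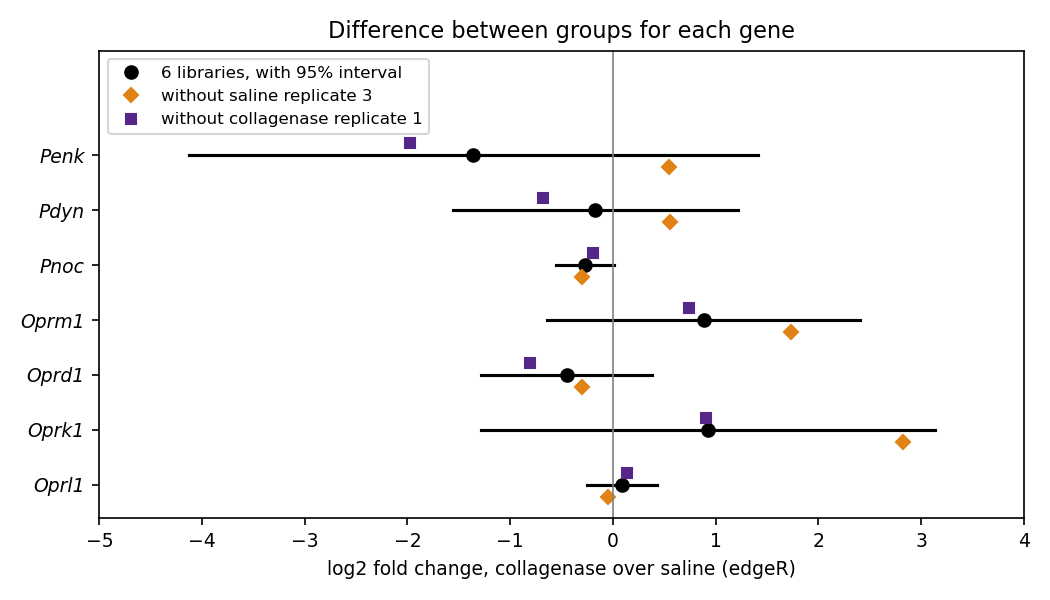
Log2 fold change of collagenase over saline (x axis) for each gene with all 6 libraries (black, with the 95% interval of the edgeR fit), without saline replicate 3 (orange) and without collagenase replicate 1 (purple). The 7 black intervals all include 0. The orange point of Oprk1 lies at 2.82, and that of Penk lies on the other side of 0 from its black point.

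The genes differed widely in how much they varied within a group. The SD of log2 CPM within groups was 1.45 for Penk, a value that 1.01% of tested genes reached. It was 1.31 for Oprk1 (reached by 1.36%), 1.19 for Oprm1 (1.82%) and 0.872 for Pdyn (3.81%). Oprd1 had 0.512 (12.5%), Oprl1 had 0.217 (47%) and Pnoc had 0.115 (80.2%), beside a median of 0.205 over all tested genes. The genes of the nociceptin system, Pnoc and Oprl1, were thus as steady as a typical gene, and Penk, Pdyn, Oprm1 and Oprk1 were among the more variable ones. For these 4 genes a difference between groups would have had to be large to be detected with 3 libraries each.

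FPKM allows levels of different genes to be set side by side, since it is scaled by transcript length. Means over the 6 libraries were 51.3 ± 63.2 FPKM for Penk and 19.5 ± 3.27 for Oprl1 (SD, n = 6). Each of these genes was above the other in 3 of 6 libraries, so their order was not settled. Pnoc came next, below both in 6 of 6 libraries, with 8.52 ± 0.767 FPKM. Pdyn followed with 3.88 ± 2.11 FPKM, below Pnoc in 6 of 6. The remaining receptors were lowest in every library, at 1.17 ± 0.655 FPKM for Oprk1, 0.785 ± 0.462 for Oprm1 and 0.444 ± 0.14 for Oprd1. Their order among themselves changed: Oprm1 was above Oprd1 in 4 libraries and above Oprk1 in 2. The nociceptin receptor therefore stood between 1.70 and 2.77 times above its own precursor in FPKM, while the mu, delta and kappa receptors stood below Penk and Pdyn in every library.

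The deposited counts and FPKM of Oprk1 did not move together. Dividing the count by FPKM and by the library total gives the transcript length that the FPKM implies. For Oprk1 this was 2640 and 2696 bases in saline replicates 1 and 2, 4784 bases in saline replicate 3, and 4805, 4804 and 4883 bases in the collagenase libraries. The 2 libraries with low Oprk1 thus carried the shorter length. The range was 1.85-fold. Ranges were compared over 14928 genes with at least 20 counts in every library, after scaling each library by its median relative length. On that scale 0.395% of genes had a range as wide as that of Oprk1. The annotation holds coding transcripts of 4675, 2481 and 1376 bases for Oprk1. Since the implied length changed, Oprk1 varied 9.34-fold over libraries in CPM and 4.80-fold in FPKM. Whether the isoform used or the estimate of it changed was not tested.

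For Penk the implied length was 1041 to 1120 bases in the saline libraries and collagenase replicate 1, and 1369 and 1399 bases in collagenase replicates 2 and 3. Its annotated transcripts are 1449 and 721 bases long. On the same scaled lengths a range as wide was seen for 2.48% of genes. Pdyn kept an implied length between 2485 and 2552 bases, near its 2386-base transcript, and Oprl1 one between 3047 and 3206 bases.

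**Figure D4:**
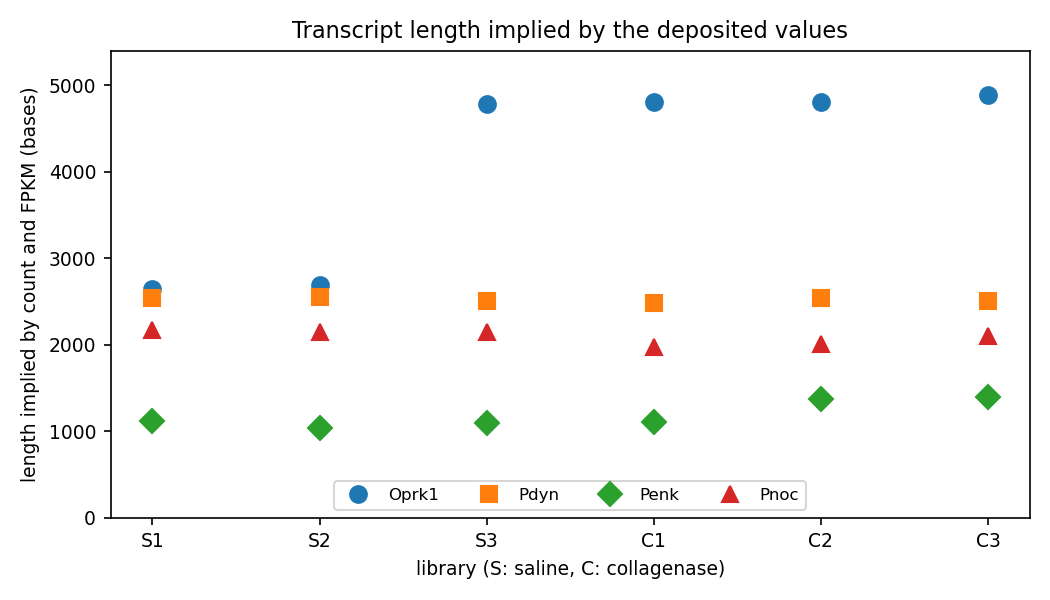
Transcript length in bases (y axis) implied by the deposited count, FPKM and library total for Oprk1, Pdyn, Penk and Pnoc in each library (x axis). Oprk1 sits at 2640 and 2696 in saline replicates 1 and 2 and between 4784 and 4883 in the other 4 libraries, while Pdyn and Pnoc stay nearly level.

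Genes with the most similar pattern were sought by Pearson's r of log2 CPM over the 6 libraries, which share their depth and tissue composition, so the values are a description only. They are the highest of 12823 candidate genes (12824 for Oprm1 and Oprd1), and the top r was 0.982 or more for every member. For Penk the closest were Ppp1r1b (r = 0.999), Jcad (0.996) and Sec14l1 (0.985). Ppp1r1b is also on the striatal list. The closest to Pdyn were Krr1 (0.982), Cd24a (0.966) and Mns1 (0.963), and to Pnoc Tmem203 (0.993), Satb1 (0.987) and Usmg5 (0.986). Among the receptors, Oprm1 was closest to Pctp (0.993), Zfp869 (0.986) and Acp2 (0.983), and Oprd1 to Trak2 (0.988), Dhx40 (0.988) and Lrrk2 (0.982). Oprk1 was closest to Cep131 (0.996), Sparcl1 (0.994) and Disp1 (0.993), and Oprl1 to Sqstm1 (0.998) and Haus8 (0.982).

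Other genes of the opioid pathway were taken from 4 lists of 55 genes in all, each of which was tested. With edgeR 2 rose after collagenase, which is 3.64% of the lists beside 2.12% of all tested genes. None fell, beside 0.29% of all tested genes. The remaining 53 did not pass, and the median log2 fold change was -0.07. DESeq2 called 6 of the 55 genes, 4 higher and 2 lower, beside 4% of all genes it tested. It gave no adjusted p for Rgs9.

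Among 9 genes of precursor processing 1 rose with edgeR, beside 2.12% of all tested genes. This was Ctsl, which encodes cathepsin L, a lysosomal protease that can also cut proenkephalin in secretory vesicles. It was at 97.9, 95.9 and 78.6 CPM after saline and 172.6, 142.2 and 132.8 CPM after collagenase, so every collagenase library was higher. Its log2 fold change was 0.72 (SE 0.13, edgeR adjusted p = 0.0338), and the call was lost in 5 of 6 comparisons with 1 library left out, where the adjusted p reached 0.124 and the log2 fold change ran from 0.60 to 0.80. It was also lost with total counts only (edgeR adjusted p = 0.0555) and in the 4 limma settings on FPKM (log2 fold change 0.55 to 0.57, adjusted p = 0.177 to 0.256). The call was kept without saline replicate 3 (adjusted p = 0.0298). The prohormone convertase Pcsk2 (log2 fold change -0.22, edgeR adjusted p = 0.73) and its chaperone Scg5 (0.08, adjusted p = 0.91) did not pass. Pomc, the precursor of beta-endorphin, was near 1 CPM in both groups, at 1.1 ± 0.142 after saline and 0.972 ± 0.237 after collagenase (SD, n = 3 each).

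Among 11 genes of peptide degradation 1 rose with edgeR, beside the same 2.12% of all tested genes. This was Anpep, which encodes aminopeptidase N, an enzyme that removes the first tyrosine of enkephalins. It was at 3.38, 4.33 and 4.19 CPM after saline and 15.5, 11.5 and 10.6 CPM after collagenase. The groups lay far apart, with a log2 fold change of 1.66 (SE 0.20, edgeR adjusted p = 0.00599), and it passed with each library left out (1.48 to 1.77). The enkephalin-cleaving metalloprotease Mme, neprilysin, did not pass, at 12.3 ± 4.41 CPM after saline and 12.9 ± 2.74 CPM after collagenase (SD, n = 3 each). Ece2, an endothelin-converting enzyme that also cleaves opioid peptides, had a log2 fold change of 0.31 (edgeR adjusted p = 0.22). Its groups did not overlap, which is so for 17.6% of all tested genes in either direction. Mmel1 (0.58, adjusted p = 0.712) and Npepps (-0.10, adjusted p = 0.802) did not pass.

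Anpep and Ctsl are also made by macrophages and other non-neuronal cells, whose markers moved in the same libraries. Summed microglia and macrophage markers were 294.1, 306.3 and 323.4 CPM after saline and 851, 704.4 and 605.8 CPM after collagenase. Of these 10 markers 8 passed with edgeR, all higher, beside 2.12% of all tested genes in that direction. Of 10 fibroblast and meningeal markers 4 passed, all higher, beside the same 2.12%. Their sums were 577.3 to 1002.1 CPM after saline and 970.7 to 1731.6 CPM after collagenase. The part of these cells in the rise of Anpep and Ctsl was not tested.

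**Figure D5:**
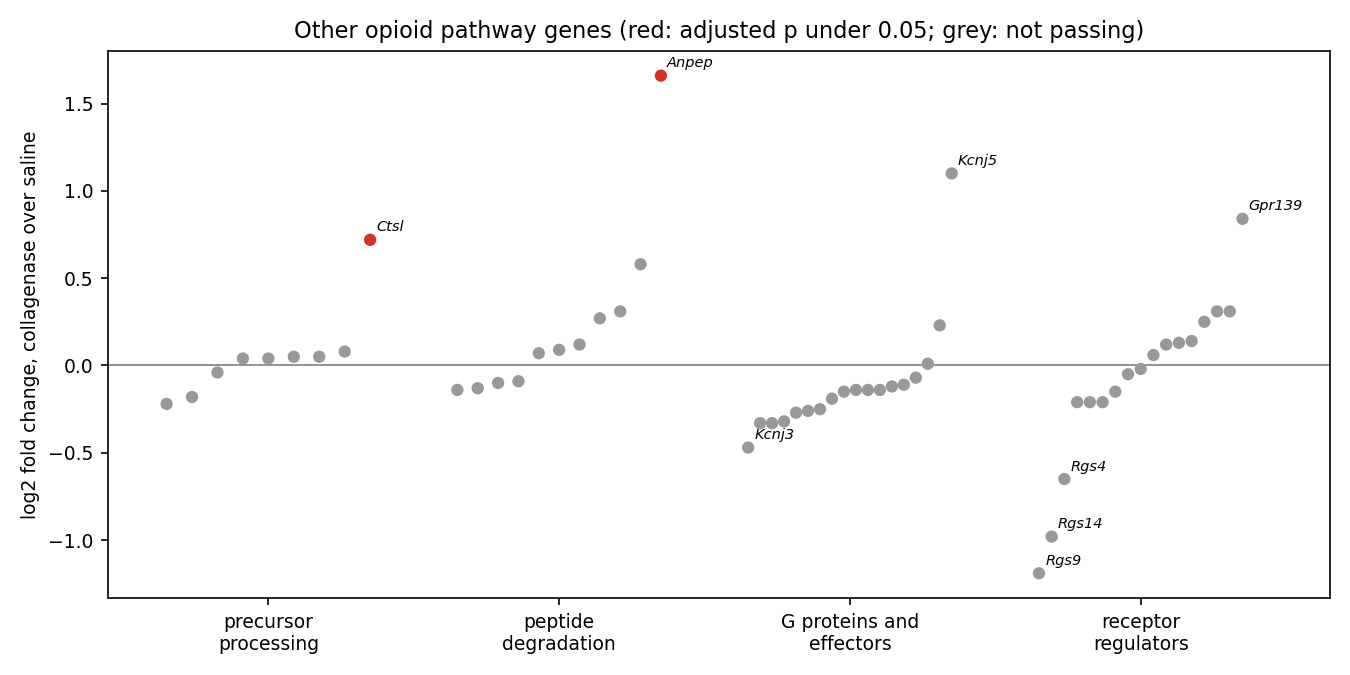
Log2 fold change of collagenase over saline (y axis) for the 55 other opioid pathway genes, ordered within each of the 4 lists (x axis). Red points passed with edgeR (Anpep at 1.66 and Ctsl at 0.72), and grey points did not.

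Among 18 inhibitory G proteins and effectors, 0 passed with edgeR and 4 had an unadjusted p under 0.05 (12% of all tested genes did). DESeq2 called 1, beside 4% of the genes it tested. The median over this list was -0.15 (log2 fold change). Kcnj5, a subunit of the G protein-gated potassium channels that opioid receptors open, was at 1.89, 1.6 and 2.61 CPM after saline and 4.22, 3.2 and 5.67 CPM after collagenase (log2 fold change 1.10, edgeR adjusted p = 0.122). Its partner subunit Kcnj3 was far more abundant, at 146.1, 116.9 and 162.6 CPM after saline and 100.1, 112 and 96.2 CPM after collagenase (-0.47, adjusted p = 0.173). The groups did not overlap for either gene, in opposite directions, which is so for 17.6% of all tested genes in either direction, and neither passed. Without saline replicate 3, Kcnj5 passed, and so did Gnai1, which encodes an inhibitory G protein subunit.

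Among 17 regulators of opioid receptors, 0 passed with edgeR and 5 had an unadjusted p under 0.05, beside 12% of all tested genes. DESeq2 called 3 of the 16 to which it gave an adjusted p, beside 4% of the genes it tested. The list's median was -0.02. Gpr139, an orphan receptor that opposes mu receptor signalling, was at 4.66, 5.44 and 6.31 CPM after saline and 8.57, 9.44 and 11.3 CPM after collagenase (log2 fold change 0.84, edgeR adjusted p = 0.0572). Rgs4, which speeds the shut-off of inhibitory G proteins, was at 621.1, 432.4 and 551.4 CPM after saline and 334.6, 372 and 313.8 CPM after collagenase (-0.65, adjusted p = 0.0698). Rgs14 was at 9.15, 9.89 and 12.7 CPM after saline and 7.23, 3.74 and 5.08 CPM after collagenase (-0.98, adjusted p = 0.118). All 3 genes had groups without overlap, as did 17.6% of all tested genes. With edgeR, TMM factors and all 6 libraries they did not pass, while DESeq2 called each of them. In other edgeR settings Gpr139 passed with total counts only and without saline replicate 3. Rgs4 passed without saline replicate 2. Without saline replicate 3 and collagenase replicate 1 together, a setting chosen after the values were seen, Gpr139 and Rgs14 passed. Rgs9, which is also on the striatal list, was at 60.2 CPM in saline replicate 3 and between 4.54 and 20 CPM in the other 5 libraries, the pattern of Penk.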

How the data were processed

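Poly(A) RNA of 6 libraries was analysed, 3 per group, with groups and replicate numbers taken from the sample titles. Each file holds 2 measures per feature deposited by the authors, an unnormalized count and FPKM. The tools in the submitters' processing notes are HISAT2 2.2.1, StringTie, FastQC and DESeq2, on GRCm38, with no roles given. Neither strand setting nor annotation release was found in the labels. Symbols were matched by Ensembl identifier (22022 of 22036), and 4518 features were assembled loci. Stray annotation lines, 10 per file, were skipped.

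Counts were tested in R 4.3.3 with edgeR 4.0.16: filterByExpr, TMM factors (0.898 to 1.063), robust quasi-likelihood F-test, two-sided, Benjamini-Hochberg over 17240 features, threshold 0.05. CPM values were scaled by the same TMM factors. The steps were tested on simulated data. Alternatives were DESeq2 1.42.0, other scalings and filters, a replicate block, limma 3.58.1 on log2(FPKM + 0.1) and other pseudocounts, and leaving out libraries. Positions and coding sequences came from GENCODE M21 (GRCm38).

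Named genes were the 7 members, the pathway genes that passed with up to 3 further genes of smallest p per list, up to 3 markers of highest mean CPM per cell type list, and per member the 3 genes of highest r among those with a mean log2 CPM of at least 1. Adora2a, Gpr151, Chrnb4, Dlx1, Vav2, Mme, Gnai1, Rgs9 and the genes of the closing observations were added after their values were seen. A few genes named by these rules are not reported here, nor is 1 sequence. The members and lists were chosen with earlier results of these data known.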

Additional observations from a re-analysis of the deposited data

How the results depend on the processing

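Over all tested genes, 416 passed with edgeR, 788 with DESeq2, 238 with limma on log2(FPKM + 0.1) without a filter, and 85 (without saline replicate 1) to 917 (without saline replicate 3) with 1 library left out. Of the 7 members 0 passed, and with 1 library left out 0 to 1. Of the 55 pathway genes 2 passed, 6 with DESeq2, 1 in each limma setting, and 1 to 6 with 1 library left out. A further alternative, chosen after seeing the data, left out saline replicate 3 and collagenase replicate 1 together: 977 genes, 1 member (Oprk1) and 6 pathway genes passed. Signs turned for 3 members. With 1 library left out the log2 fold change ran from -1.98 to 0.55 for Penk, from -0.68 to 0.56 for Pdyn and from -0.05 to 0.17 for Oprl1. For Pdyn it was 0.00 to 2 decimals, just above 0, with limma at pseudocounts of 0.1 (with or without a filter) and 0.01, and 0.05 without both libraries, where Oprl1 was 0.00, just below 0. The causes were not tested. With a replicate block 302 genes, 0 members and 2 pathway genes passed. The block moved Oprk1 to 1.67 (edgeR adjusted p = 0.42). Deviations of same-numbered libraries correlated at 0.04, 0.11 and 0.20. Saline replicates 2 and 3 correlated best with their own number and saline replicate 1 with collagenase replicate 2 (0.08), so the numbers were not taken as pairs. Depth limits Oprm1, Oprk1 and Oprd1 most, with as few as 7, 34 and 35 counts.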

Other observations

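Of 29 other neuropeptide precursors 22 were tested, and with edgeR 0 passed, with 6 at an unadjusted p under 0.05 (12% of all tested genes) and 2 called by DESeq2 (4% of the genes it tested). Their median log2 fold change was -0.07. The abundant ones were Cck, at 195.2, 209.6 and 243.6 CPM after saline and 119.5, 151.6 and 188.1 CPM after collagenase (log2 fold change -0.50, edgeR adjusted p = 0.253), and Sst, at 73.2, 51.1 and 116.1 CPM after saline and 41.9, 34.2 and 59.3 CPM after collagenase (-0.83, adjusted p = 0.369). Npy had a log2 fold change of -0.99 (edgeR adjusted p = 0.152) and its groups did not overlap. Of the 22 tested precursors 3 were lower and 1 higher with no overlap, beside 17.6% of all tested genes in either direction.

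Several precursors varied over libraries as widely as Penk. Tac2, which is also on the habenular list, was at 1.69, 1.13 and 30.4 CPM after saline and 15.7, 9.81 and 40.5 CPM after collagenase, the order seen for Gpr151. Pmch, the precursor of the hypothalamic melanin-concentrating hormone, was at 32.1, 0.611 and 0.117 CPM after saline and 1.91, 4.52 and 12.4 CPM after collagenase. The highest library for Pmch was thus saline replicate 1, in which Penk and Oprk1 were low.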
